A study of Mus musculus with 6 samples.

Results

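Aldehyde dehydrogenases other than the Aldh1a enzymes were examined in primary mouse ovarian surface epithelium cells that had been sorted by ALDEFLUOR fluorescence. The 10 genes were taken by symbol and comprise Aldh2, Aldh1b1, Aldh1l1, Aldh1l2, Aldh3a2, Aldh4a1, Aldh6a1, Aldh7a1, Aldh9a1 and Aldh18a1. They are 10 of 18193 genes that the platform annotation names by a probe set with a single symbol. The array holds 22 probe sets annotated to exactly one of the 10 symbols, out of 45037 probe sets other than controls. Of the 22, 20 were bright enough to be tested, and each gene kept at least 1 tested probe set. The 2 dim ones belong to Aldh1l1 and Aldh7a1.

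The ALDH-positive group comprised 3 samples and the ALDH-negative group 3 samples, with 1 of each from every one of 3 independent pools of 10 mice. All mice were virgin FVB/N females, aged 8 weeks (the labels also give an age in months), and all cells of both groups had been cultured for 24 hours before staining. Labels mark the fractions as ALDH1 pos and ALDH1 neg, a split by enzyme activity and not by genotype. Cells treated with diethylaminobenzaldehyde (DEAB), an inhibitor of aldehyde dehydrogenases, and unstained cells served as controls of the sort. Each sample is a pool of animals, so that differences between single mice cannot be seen.

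Aldehyde dehydrogenases oxidise reactive aldehydes to carboxylic acids with NAD or NADP as the electron acceptor. In the ALDEFLUOR assay an uncharged fluorescent aldehyde enters the cell and is oxidised to a charged product that the cell retains, while efflux pumps are inhibited. The assay is commonly read as Aldh1a activity, but mitochondrial, folate and fatty aldehyde dehydrogenases act on overlapping aldehydes, which makes the level of their transcripts in both fractions a question of its own.

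Levels are log2 signal after quantile normalization, and differences are ALDH-positive minus ALDH-negative, averaged over the 3 pools. A probe set was called past the threshold at a limma p of 0.05 adjusted by Benjamini-Hochberg across the whole table of 27022 tested probe sets. The number of arrays limits the precision, and each p-value measures a difference against a moderated variation among 3 pools of mice. In limma the variance of each probe set is drawn towards a value shared by all tested probe sets. Each SE, interval and p-value is therefore not that of the probe set's own 3 differences alone. In sorted bulk samples, fewer cells of a type and less RNA per cell cannot be told apart.

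One array, that of ALDH-negative cells of pool 2, differed from the rest, with correlations of 0.558 to 0.679 to the other arrays (over 45037 probe sets), whereas the remaining 5 showed 0.85 to 0.974 with each other. In pool 2, 69.8% of the tested probe sets differed by more than 1 log2 unit between fractions, against 7.62% in pool 1 and 25.7% in pool 3. On that array the deposited control signal of beta-actin was 4.81 at the 5′ end, 3.53 in the middle and 5.03 at the 3′ end, while the 3′ signal was 9.56 to 11.04 on the others. Gapdh fell less there, with 7.92 at the 5′ end, 8.43 in the middle and 10.07 at the 3′ end. Its 3′ signal on the others was 10.22 to 11.25. The part of RNA or array quality in the pool 2 differences below was not tested, and fits without that array are given further on. In pool 3 the deposited Gapdh control signal was weak at the transcript's 5′ end, 5.20 for ALDH-positive cells against 6.63 for ALDH-negative cells, beside 3′ signals of 10.50 and 10.22. For beta-actin the 5′ signals of pool 3 were 9.40 and 8.58, beside 3′ signals of 10.18 and 9.56. Results are therefore also given without pool 2. For these the remaining arrays were quantile normalized anew, so the values need not equal the mean of the differences printed for pools 1 and 3. Markers of the surface epithelium were read beside the label of the tissue. Their list was chosen with earlier results of these data known, so its direction is no independent check. All 16 on the list were higher in ALDH-positive cells in every pool, beside 11.5% of all tested probe sets. Their summed log2 level was 108.74 to 117.12 on ALDH-positive and 63.49 to 67.32 on ALDH-negative arrays, so the fractions differed in markers of the labelled tissue. On each ALDH-negative array 4 of them lay below the filter level of 2.73, and on the ALDH-positive arrays 0. The summed level of 11 stroma markers was 59.01 to 60.79 on ALDH-positive and 39.06 to 51.19 on ALDH-negative arrays. On ALDH-positive against ALDH-negative arrays it was, for 9 steroidogenic markers, 59.44 to 65.15 and 38.63 to 67.01, for 10 granulosa markers 56.79 to 63.00 and 44.74 to 66.10, for 9 endothelium markers 23.29 to 24.67 and 23.37 to 30.64, and for 11 leukocyte markers 26.52 to 35.17 and 27.78 to 42.24. The ALDH-negative array of pool 2 set the low ends for steroidogenic and granulosa markers and the high ends for endothelium and leukocyte markers. On the ALDH-negative arrays of pools 1 and 3 the steroidogenic sums were 66.44 and 67.01, above every ALDH-positive array. Without pool 2 the median difference of the tested steroidogenic markers was -0.64. The granulosa sums on those 2 arrays were 66.10 and 56.46, on either side of the ALDH-positive range. The part of cell type makeup in the results below was not tested.

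None of the 20 tested probe sets of these aldehyde dehydrogenases separated the fractions past the threshold (limma, adjusted p from 0.895 to 0.991). This does not show that the fractions were alike, since the 95% intervals of the 20 reached from as low as -4.01 to as high as 5.14. Across all 27022 tested probe sets none passed either (0 higher and 0 lower, 0.0%). At an unadjusted limma p under 0.05 there was 1 of the 20, a probe set of Aldh1l1 that read lower in ALDH-positive cells, while 2.45% of all tested probe sets reached that level. Of the 20 mean differences 10 lay above 0, beside 48.2% of all tested probe sets. Of the 20, 1 read higher in ALDH-positive cells in all 3 pools, 4 read lower in all 3 and 15 differed in direction between pools. Over all tested probe sets 11.5% were higher and 10.8% lower in every pool. The median difference of the 20 was 0.02, beside -0.04 for all tested probe sets. It was 0.38 (all tested 0.05) in the values as deposited, 0.55 (all tested 0.22) after median centring and -0.18 (all tested 0.0) with array weights. By pool the medians were -0.01, 0.64 and -0.16, beside -0.01, 0.06 and 0.0 for all tested probe sets. In pool 1 the 20 differences lay between -0.72 and 0.72, so that none exceeded 1 log2 unit there, whereas 18 of them did so in pool 2 and 8 did so in pool 3.

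**Figure D1:**
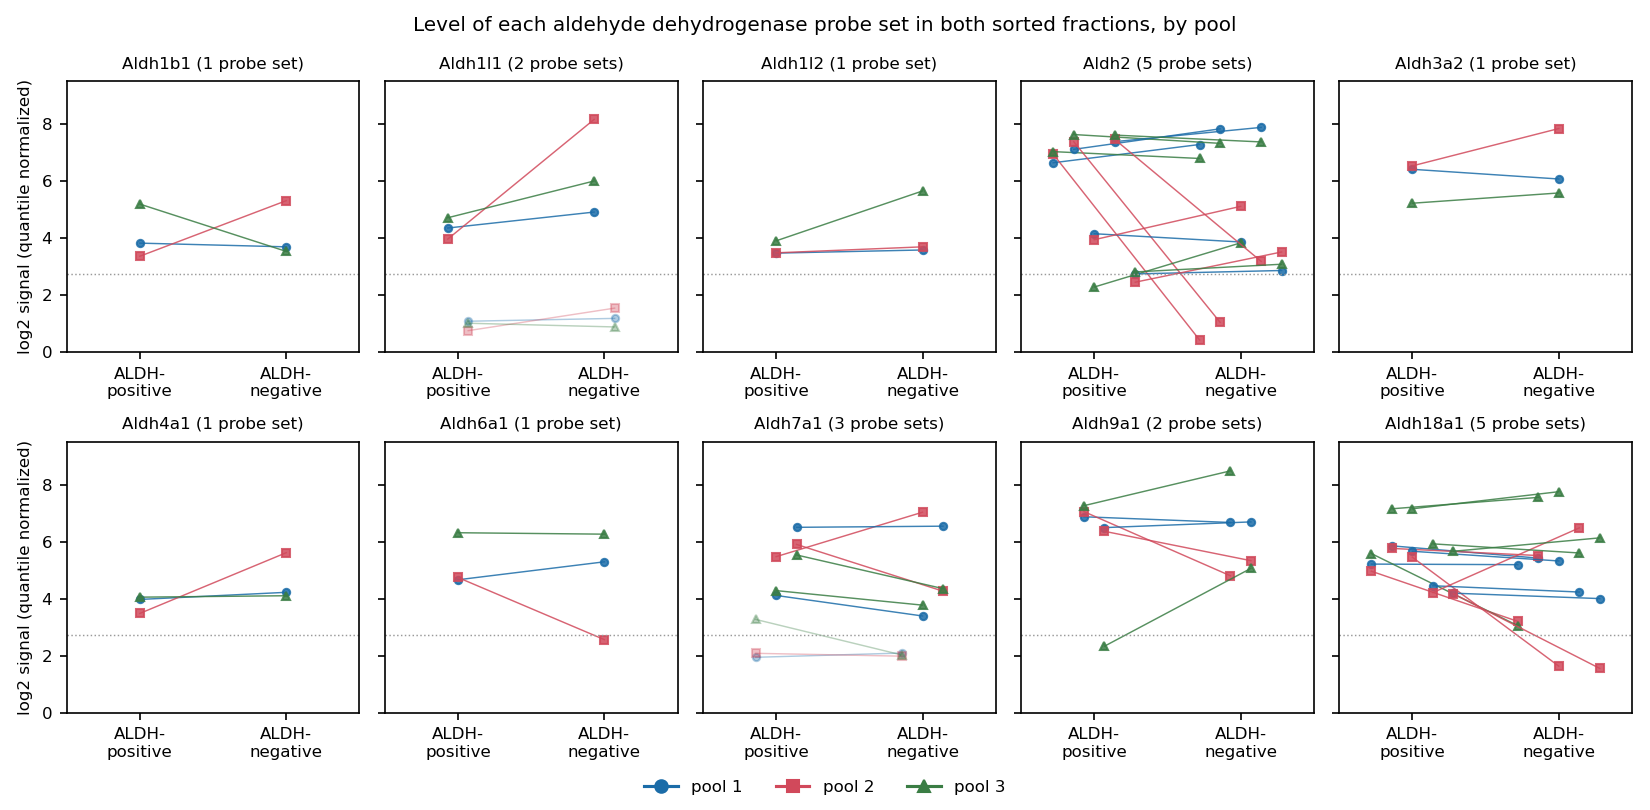
Log2 signal of all 22 probe sets by gene, in ALDH-positive (left) and ALDH-negative (right) cells, with 1 line per probe set and pool. Faint lines are the 2 probe sets too dim to be tested, and the dotted line is the filter level of 2.73. No tested probe set differs by more than 1 log2 unit in pool 1, 18 do in pool 2 and 8 in pool 3.

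Aldh2 is the mitochondrial enzyme that clears acetaldehyde and aldehydes of lipid peroxidation. Its probe set 1448143_at read 7.39, 7.47 and 7.62 in ALDH-positive cells of pools 1 to 3, against 7.89, 3.19 and 7.38 in ALDH-negative cells. The 5 arrays other than the ALDH-negative one of pool 2 thus lay within 7.38 to 7.89 in both fractions. Both other bright probe sets behaved alike. Probe set 1434987_at read 6.65, 6.95 and 7.04 in ALDH-positive cells, against 7.29, 0.43 and 6.80 in ALDH-negative cells. For 1434988_x_at the readings were 7.12, 7.39 and 7.64 in ALDH-positive cells, against 7.84, 1.05 and 7.33 in ALDH-negative cells. In each of the 3 the signal was lower in ALDH-positive cells of pool 1, slightly higher in those of pool 3, and far higher in pool 2, where the ALDH-negative array differed from all others.

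The mean differences of these bright Aldh2 probe sets were 1.34, 2.04 and 1.98, with wide 95% intervals of -0.99 to 3.67, -1.06 to 5.14 and -1.07 to 5.03. Without pool 2 they were -0.14, -0.21 and -0.22, and the limma intervals were -1.27 to 0.98, -1.37 to 0.95 and -1.41 to 0.98. The direction over 3 pools therefore rested on 1 array. The 2 dimmer probe sets of Aldh2 did not follow. One of them, 1437410_at, differed by -0.81 (SE 0.69) and the other, 1457155_at, by -0.48 (SE 0.65), and without pool 2 they were at -0.65 and -0.20. The 1457155_at arrays read 2.46 to 2.82 in ALDH-positive and 2.87 to 3.52 in ALDH-negative cells, close to the filter level, with groups that did not overlap by a margin of a few hundredths.

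Aldh1b1 encodes a mitochondrial enzyme closely related to Aldh2. Its single probe set read 3.83, 3.37 and 5.20 in ALDH-positive cells, against 3.70, 5.32 and 3.54 in ALDH-negative cells. The groups overlapped, and the pools gave differences of 0.13, -1.94 and 1.66. The mean was -0.05 (SE 0.83, 95% interval -2.0 to 1.89), and without pool 2 it was 0.95 (SE 0.54).

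Enzymes that meet the same reactive aldehydes were described from a list of alcohol dehydrogenases, aldo-keto reductases and glutathione transferases. Of 15 tested genes none passed over all probe sets (limma), none reached an unadjusted p under 0.05, and the median was 0.44 over 3 pools and -0.18 without pool 2. Gstp1, a glutathione transferase, differed by 1.86 (SE 1.02) and by 0.35 without pool 2. Adh1, a cytosolic alcohol dehydrogenase that also oxidises retinol, read 10.44, 9.79 and 10.92 in ALDH-positive cells, against 10.74, 3.26 and 10.71 in ALDH-negative cells. As with the bright Aldh2 probe sets, both fractions of pools 1 and 3 were close and pool 2 differed. Akr7a5, an aldehyde reductase, differed by -1.26 (SE 0.81) and by -0.31 without pool 2. In the values as deposited it differed by -0.69, and after median centring by -0.52.

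Among the folate enzymes, Aldh1l1 encodes the cytosolic formyltetrahydrofolate dehydrogenase, which releases the formyl carbon as CO2 and returns tetrahydrofolate. Its tested probe set read 4.36, 3.97 and 4.72 in ALDH-positive cells, against 4.92, 8.17 and 6.01 in ALDH-negative cells. Every ALDH-positive array lay below every ALDH-negative one. The pool differences were -0.56, -4.20 and -1.29, and the mean was -2.02 (SE 0.85, 95% interval -4.01 to -0.018). The limma unadjusted p was 0.0484 and the adjusted p 0.895. The unadjusted limma p was above 0.05 after median centring (0.0643), with an intensity trend (0.0536), without a filter (0.0661) and with a stricter one (0.0573). It was also above 0.05 without pool 2 (0.0732) and without pool 3 (0.0719). Below 0.05 were the values as deposited (0.0452), no block (0.0456), a random block (0.038), array weights (0.00623) and the fit without pool 1 (0.0235). In the values as deposited the pool differences were -0.9, -2.7 and -1.27, with a mean of -1.62. With array weights the difference was -1.21 (limma adjusted p = 0.0542). Without pool 2 the difference was -0.99 (SE 0.45, 95% interval -2.11 to 0.13, limma adjusted p = 0.908). The second probe set, below the filter, read about 1 on each array and differed by -0.26.

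Groups without overlap were found for 3 of the 20 tested probe sets, all lower in ALDH-positive cells: Aldh1l1, Aldh4a1 and 1457155_at of Aldh2. Over all tested probe sets 6.89% had fractions without overlap, 3.49% higher and 3.40% lower. None of the 20 was higher without overlap.

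Aldh1l2, the mitochondrial counterpart of Aldh1l1, read 3.48, 3.49 and 3.91 in ALDH-positive cells, against 3.59, 3.70 and 5.66 in ALDH-negative cells. It was lower in ALDH-positive cells of all pools, by 0.11 and 0.21 log2 units in pools 1 and 2 and by 1.75 in pool 3. The mean of -0.69 (SE 0.69) did not exceed the spread between pools, and without pool 2 it was -0.99 (95% interval -2.4 to 0.42).

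Across the folate one-carbon list, 15 of 20 genes were tested and none passed over all probe sets (limma). At an unadjusted p under 0.05, 1 was higher and 1 lower, beside 2.04% and 0.403% of all tested probe sets. The first was Atic, which closes the purine ring with a folate-borne formyl group. It read 7.12, 6.73 and 6.15 in ALDH-positive cells, against 6.51, 4.32 and 3.82 in ALDH-negative cells, a difference of 1.78 (SE 0.70, adjusted p = 0.895) and of 1.58 without pool 2. Mtfmt, the mitochondrial methionyl-tRNA formyltransferase, differed by -1.70 (SE 0.72) and by -1.16 without pool 2, with lower readings in ALDH-positive cells of each pool. Mthfd1l, a mitochondrial formate-producing synthetase, differed by 1.63 (SE 0.74), with pool differences of 0.46, 1.42 and 3.0. It was 1.83 without pool 2. The list median was 0.34, and 0.15 without pool 2.

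Promoter windows were kept for 7 of the 10 genes in RefSeq's mouse assembly GRCm38.p6, from 250 bases before to 50 after the annotated start (8 windows, Aldh6a1 with 2). None was kept for Aldh2, Aldh1l2 and Aldh7a1. Member windows on 1 further chromosome were left out, and no match to any of the 4 motifs was listed there. The shares of members below cover the kept windows only, and are higher than with those windows counted. Windows were searched on both strands for the TATA box (letters TATAAA), the CCAAT box (letters CCAAT), the GC box (letters GGGCGG) and the nuclear receptor half-site (letters AGGTCA). The second of these, in either orientation (ATTGG on the opposite strand), was found for 6 of the 7 genes and in 7 of the 8 windows, beside 37.4% of 32851 promoter windows of that length. The GC box matched in 4 genes (35.7% of all windows), the half-site in 2 (16.3%), and the TATA box in 0 (13.6%). The windows of Aldh1l1 and Aldh4a1 are shown because their probe sets read lower on every ALDH-positive array, and the upstream of the Aldh6a1 windows because it holds the most CCAAT matches, 4. All CCAAT matches printed for Aldh1l1 and Aldh4a1 lie on the opposite strand. Capitals mark matches to any of the 4 motifs on either strand. Aldh1l1 (chr6:90550543-90550842, plus strand) has 2 CCAAT matches, 1 GC box and 1 half-site, Aldh4a1 (chr4:139622644-139622943, plus strand) has 3 CCAAT matches, and Aldh6a1 lies at chr12:84450975-84451274 on the minus strand. A match describes letters only and says nothing of binding.
Aldh1l1: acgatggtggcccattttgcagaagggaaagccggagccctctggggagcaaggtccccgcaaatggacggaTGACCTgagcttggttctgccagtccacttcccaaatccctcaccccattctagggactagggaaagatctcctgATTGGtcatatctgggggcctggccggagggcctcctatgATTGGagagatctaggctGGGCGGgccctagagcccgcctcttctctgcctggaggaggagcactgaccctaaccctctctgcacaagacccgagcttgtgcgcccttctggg
Aldh4a1: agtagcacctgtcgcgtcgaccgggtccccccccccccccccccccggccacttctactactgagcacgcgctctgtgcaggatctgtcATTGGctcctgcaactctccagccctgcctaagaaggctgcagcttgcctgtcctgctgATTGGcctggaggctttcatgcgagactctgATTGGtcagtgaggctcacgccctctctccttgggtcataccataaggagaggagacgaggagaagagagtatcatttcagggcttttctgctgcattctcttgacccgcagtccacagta
Aldh6a1: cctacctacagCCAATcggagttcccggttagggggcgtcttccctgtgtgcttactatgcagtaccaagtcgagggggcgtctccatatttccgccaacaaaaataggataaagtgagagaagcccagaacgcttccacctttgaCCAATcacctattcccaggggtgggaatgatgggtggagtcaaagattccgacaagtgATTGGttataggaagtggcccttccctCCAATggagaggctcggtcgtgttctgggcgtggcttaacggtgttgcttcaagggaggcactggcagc

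The fatty aldehyde dehydrogenase Aldh3a2, an enzyme of the endoplasmic reticulum, oxidises long-chain aldehydes that arise from fatty alcohols and from the breakdown of sphingosine phosphate. Its probe set read 6.42, 6.54 and 5.23 in ALDH-positive cells, against 6.08, 7.85 and 5.59 in ALDH-negative cells. Levels were lower in both fractions of pool 3 than in those of pool 1, and the groups overlapped. The mean difference was -0.44 (SE 0.68, 95% interval -2.03 to 1.14). It was -0.014 without pool 2 (95% interval -1.13 to 1.10), and 0.11 in the values as deposited, where the direction was the opposite one.

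None of 11 tested genes of fatty aldehyde and sphingoid base metabolism passed over all probe sets or reached an unadjusted limma p under 0.05. Their median was 0.59 over 3 pools and -0.023 without pool 2. Sgpl1, the sphingosine phosphate lyase upstream of Aldh3a2, differed by 1.43 (SE 0.93), with -0.29, 4.01 and 0.57 in pools 1 to 3 and 0.15 without pool 2. Hacd2 and Tecr, enzymes of fatty acid elongation, showed mean differences of 1.63 (SE 1.04) and 1.01 (SE 0.83). With pool 2 left out Hacd2 was at 0.054 and Tecr at -0.031. All 3 were thus near 0 once pool 2 was left out.

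Aldh4a1 and Aldh18a1 face each other in proline metabolism. Aldh4a1, a mitochondrial dehydrogenase, turns the proline breakdown product pyrroline-carboxylate into glutamate. It read 3.97, 3.48 and 4.05 in ALDH-positive cells, against 4.22, 5.61 and 4.10 in ALDH-negative cells. ALDH-positive arrays lay below all ALDH-negative ones, but in pools 1 and 3 by only 0.25 and 0.053 log2 units. The mean was -0.81 (SE 0.72), and -0.16 (SE 0.42) without pool 2.

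Aldh18a1 encodes the synthase that makes pyrroline-carboxylate from glutamate, the first step of proline synthesis. Its 5 tested probe sets disagreed. Probe set 1415836_at read 5.21, 4.96 and 5.58 in ALDH-positive cells, against 5.19, 3.20 and 3.05 in ALDH-negative cells. This was the 1 probe set of the 20 that was higher in ALDH-positive cells of every pool, by 0.013, 1.76 and 2.53, so that pool 1 showed almost no difference. The mean was 1.43 (SE 0.74, 95% interval -0.29 to 3.16), a 2.70-fold higher signal (limma adjusted p = 0.895), and without pool 2 it was 1.34 (SE 0.71).

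The other Aldh18a1 probe sets did not show a difference of that size in pool 3. There 1435855_x_at read 7.15 in the ALDH-positive fraction, against 7.55 in the ALDH-negative fraction. Probe set 1437325_x_at read 7.15 in ALDH-positive cells of pool 3, against 7.75 in ALDH-negative ones, and 1437620_x_at read 5.66 against 6.13. All 3 were brighter in both fractions of pool 3 than in those of pool 1, while 1415836_at was dimmer in ALDH-negative cells of pool 3 than in those of pool 1. Probe set 1437333_x_at read 4.45, 4.21 and 5.92 in ALDH-positive cells, against 4.23, 6.48 and 5.60 in ALDH-negative cells. The mean differences of these 4 ranged from -0.58 to 1.19, and without pool 2 from -0.14 to 0.29. Pool 3 also had the low 5′ Gapdh control signal, and the part of RNA integrity or amplification in the disagreement was not tested.

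Of the list of proline, ornithine and glutamate metabolism, 12 genes were tested and none passed over all probe sets or reached an unadjusted limma p under 0.05. The median was 0.54, and 0.13 without pool 2. The mitochondrial aspartate-glutamate carrier Slc25a12 differed by 1.36 (SE 0.85), glutamate dehydrogenase Glud1 by 1.37 (SE 0.91) and the cytosolic transaminase Got1 by 1.17 (SE 0.83). Without pool 2 these were 0.27, 0.11 and 0.14.

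**Figure D2:**
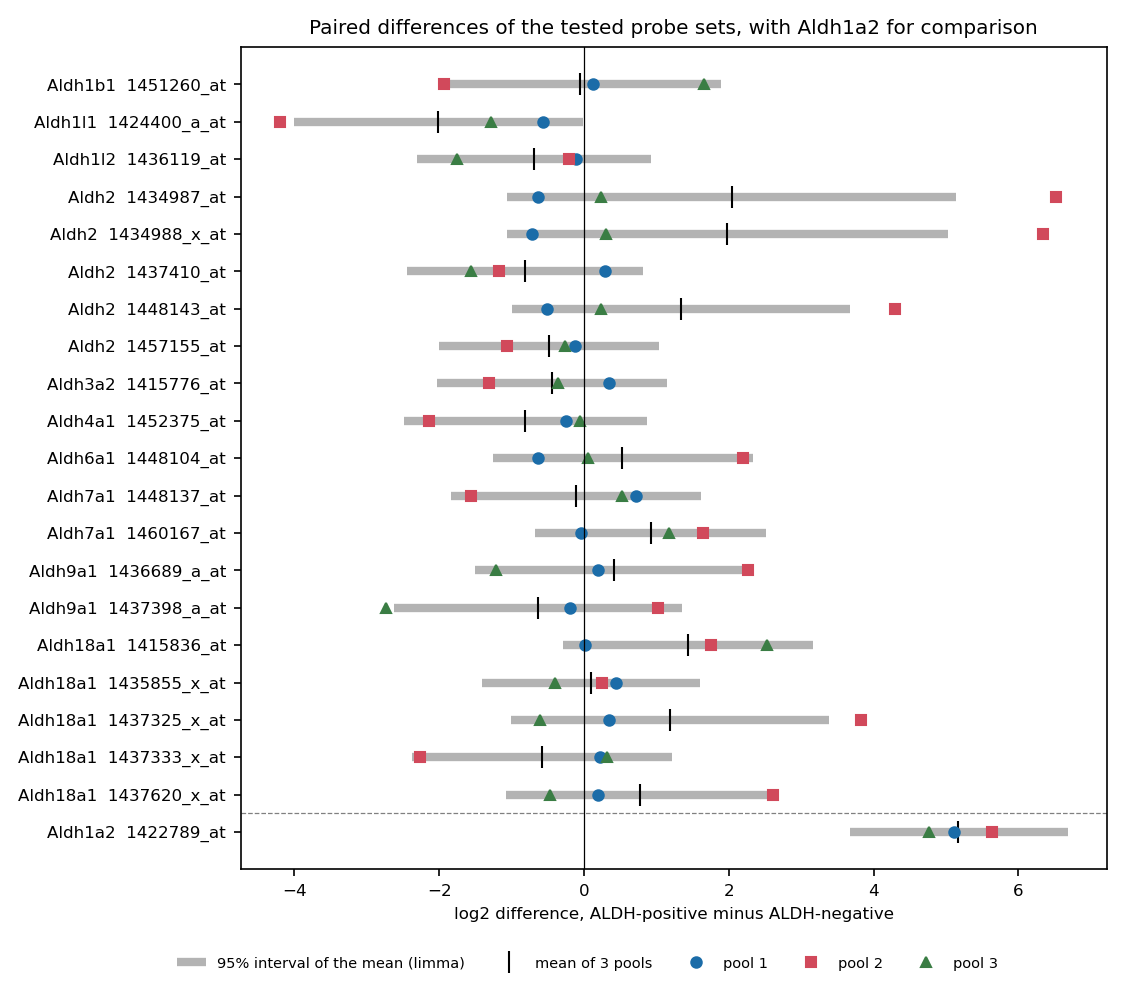
Log2 differences (ALDH-positive minus ALDH-negative) of the 20 tested probe sets, with Aldh1a2 below the dashed line. Symbols are the 3 pools, ticks their mean, and grey bars the 95% limma interval. Every upper limit of the 20 lies below the Aldh1a2 mean of 5.17. The Aldh1a2 interval of 3.67 to 6.68 still overlaps those of 1434987_at and 1434988_x_at of Aldh2, and both exceeded Aldh1a2 in pool 2. The interval of Aldh1l1 ends just below 0, at -0.018 (limma adjusted p = 0.895), and without pool 2 it reaches 0.13.

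Aldh6a1, the mitochondrial methylmalonate semialdehyde dehydrogenase of valine and thymine breakdown, read 4.66, 4.74 and 6.31 in ALDH-positive cells, against 5.29, 2.56 and 6.26 in ALDH-negative cells. Both fractions of pool 3 were brighter than those of pool 1. The pool differences of -0.63, 2.19 and 0.051 gave a mean of 0.53 (SE 0.77, 95% interval -1.26 to 2.33), and -0.31 without pool 2. In the list of branched-chain catabolism 22 genes were tested, and none passed over all probe sets or reached an unadjusted limma p under 0.05. The median was 0.14, and -0.16 without pool 2. Dld, the dihydrolipoamide dehydrogenase shared by several mitochondrial complexes, differed by 2.35 (SE 1.02), with -0.29, 5.05 and 2.29 in pools 1 to 3. The enoyl-CoA hydratase Echs1 differed by 1.49 (SE 1.02) and the ketoacid dehydrogenase subunit Bckdha by -0.99 (SE 0.69). Without pool 2 these 3 stood at 1.06, -0.044 and -0.47.

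Aldh7a1 encodes antiquitin, which oxidises aminoadipate semialdehyde in lysine breakdown and also betaine aldehyde. Probe set 1460167_at read 6.50, 5.90 and 5.53 in ALDH-positive cells, against 6.54, 4.26 and 4.35 in ALDH-negative cells. Its pool 1 arrays were alike, and ALDH-positive cells were higher in pools 2 and 3, with a mean difference of 0.92 (SE 0.68) and 0.61 without pool 2. Probe set 1448137_at read 4.11, 5.47 and 4.28 in ALDH-positive cells, against 3.39, 7.03 and 3.77 in ALDH-negative cells. Here ALDH-positive cells were higher in pools 1 and 3 and lower in pool 2, so that the mean was -0.11 (SE 0.74) and the value without pool 2 was 0.65 (SE 0.42). The third, below the filter, differed by 0.40.

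Of 11 genes of lysine and choline oxidation 5 were bright enough for the test, and none passed over all probe sets (limma). Bhmt, which remethylates homocysteine with betaine, differed by nearly the same amount in each pool. It read 3.65, 5.44 and 6.15 in ALDH-positive cells, against 5.38, 7.20 and 7.99 in ALDH-negative cells. The groups overlapped and the level varied between pools, while the paired differences were -1.73, -1.76 and -1.85. The mean of -1.78 (SE 0.63) had an unadjusted limma p of 0.0244 and an adjusted p of 0.895. Without pool 2, with the remaining arrays normalized anew, it was -1.90 (limma adjusted p = 0.85). The unadjusted limma p was 0.0746 in the values as deposited (-1.42), 0.131 after median centring (-1.26), 0.085 without the block, 0.0623 with a random block and 0.169 without the ALDH-negative array of pool 2. The choline transporter Slc44a1 differed by 2.48 (SE 1.09) and by 0.80 without pool 2, and the cationic amino acid transporter Slc7a1 by 1.07 (SE 0.91) and by -0.17 without pool 2.

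Aldh9a1 oxidises trimethylaminobutyraldehyde on the way to carnitine and also aminoaldehydes of polyamine breakdown. Probe set 1436689_a_at read 6.87, 7.05 and 7.26 in ALDH-positive cells, against 6.67, 4.8 and 8.48 in ALDH-negative cells. Probe set 1437398_a_at read 6.49, 6.36 and 2.33 in ALDH-positive cells, against 6.69, 5.33 and 5.06 in ALDH-negative cells. The probe sets thus parted in pool 3, where the first was brighter in both fractions and the other dimmer in both than in pool 1. In pool 3 both were lower in ALDH-positive cells, by 1.22 and 2.73 log2 units, and in pool 1 the differences were 0.20 and -0.20. Means over the pools were 0.41 (SE 0.82) and -0.63 (SE 0.85), and without pool 2 they were -0.52 (SE 0.52) and -1.53 (SE 0.70, limma adjusted p = 0.908).

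In carnitine and polyamine metabolism 10 genes were tested, and none passed over all probe sets or reached an unadjusted limma p under 0.05. The median was 0.17, and -0.18 without pool 2. Srm, the spermidine synthase, differed by 1.70 (SE 0.93) and by 0.45 without pool 2. Tmlhe, the dioxygenase of the first step of carnitine synthesis, was higher in ALDH-positive cells of each pool, by 0.25, 1.63 and 1.46, and by 0.91 without pool 2. The monoamine oxidase Maoa, a mitochondrial source of aldehydes, differed by -0.97 (SE 0.67), with -1.23, -1.58 and -0.081 in pools 1 to 3 and -0.70 without pool 2. For Maoa the values as deposited gave -0.38 and median centring -0.22.

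**Figure D3:**
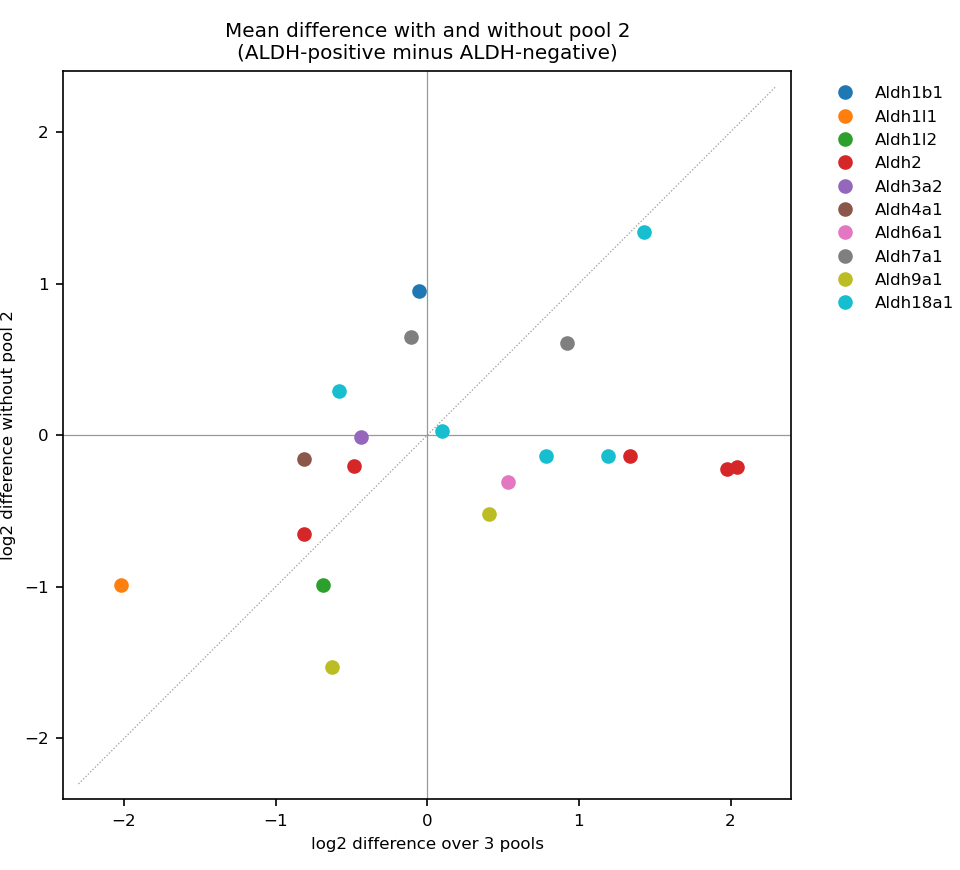
Mean log2 difference of each tested probe set over 3 pools (horizontal axis) and without pool 2 (vertical axis), coloured by gene, with equal values on the dotted diagonal. Of the 20, 10 lie in a quadrant where the sign turns, among them the 3 bright Aldh2 probe sets at the right. The share of turns over all tested probe sets was not counted.

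With pool 2 left out, the 20 differences ranged from -1.53 to 1.34, and 10 of them had the opposite sign to the mean over 3 pools. The share of such turns over all tested probe sets was not counted, so these 10 cannot be set beside it. Of the 20, 4 were higher and 5 lower in both remaining pools, beside 25.7% and 26.4% of all tested probe sets, and 11 differed in sign between them. None passed the threshold and none had an unadjusted limma p under 0.05. Without pool 2 the unadjusted level was met by 2.29% of all tested probe sets higher and 2.23% lower, and 0 of 27022 passed the adjusted threshold. With only the ALDH-negative array of pool 2 left out, and fractions compared unpaired, none of the 20 reached either level, beside 1.44% of all tested probe sets higher and 0.91% lower at the unadjusted level. Without pool 2 the median of the 20 was -0.15, beside 0.02 for all tested probe sets.

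The retinaldehyde dehydrogenase Aldh1a2 differed by 5.11, 5.64 and 4.77 in pools 1 to 3, with a limma adjusted p of 0.765. It read 7.97, 7.73 and 7.64 in ALDH-positive cells, against 2.86, 2.09 and 2.87 in ALDH-negative cells. The ALDH-negative readings lie around the filter level of 2.73, which leaves the exact size of its difference, and of the gaps given next, uncertain. Its difference exceeded that of 18 of the 20 probe sets in all pools, and that of the other 2, 1434987_at and 1434988_x_at of Aldh2, in pools 1 and 3. In those pools the gap to each of the 20 was at least 2.24 log2 units. Mean gaps ran from 3.13 to 7.19 log2 units over the 3 pools. In an exact sign-flip permutation test (two-sided, 20 comparisons) the p was 0.25 for the 18 (Benjamini-Hochberg adjusted 0.28) and 0.50 for the other 2 (adjusted 0.50), and 0.25 is the smallest that 3 pairs allow. Of the other tested aldehyde dehydrogenases, Aldh1a1 differed by 2.76 (SE 1.25) and by 0.64 without pool 2, and Aldh1a3 by -0.62 (SE 0.81) and by 0.32 without pool 2. Aldh8a1, a cytosolic semialdehyde dehydrogenase, differed by -0.86 (SE 0.79) and by 0.042 without pool 2. It read 5.01 on the ALDH-negative array of pool 2, and 2.34 to 2.69 on the others, below the filter level. Only that 1 array brought its mean past the filter.

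Efflux pumps can remove the fluorescent product of the sort, and 7 of 8 listed transporters were tested. None passed over all probe sets or reached an unadjusted limma p under 0.05, and 3 (Abcb1a, Abcb1b and Abcc4) were lower in ALDH-positive cells of every pool, beside 10.8% of all tested probe sets. Abcc4, named here after its values were seen, differed by -1.11, -0.41 and -0.18. The multidrug transporter Abcb1b read 6.62, 7.13 and 8.52 in ALDH-positive cells, against 7.46, 8.25 and 9.62 in ALDH-negative cells. Its differences of -0.84, -1.12 and -1.11 were close to each other, with a mean of -1.02 (SE 0.63, adjusted p = 0.895 by limma). That mean was -0.45 in the values as deposited and -0.28 after median centring. The related pump Abcb1a differed by -1.16 (SE 0.81), and without pool 2 by -0.18. For Abcc5, which exports organic anions, the values were -1.14 (SE 0.78) and -0.30, with a pool 1 difference of 0.001. The remaining tested transporters, Abcg2, Abcc1 and Abcc3, are also named after their values were seen. Their mean differences lay above 0, at 0.084, 0.31 and 0.15, and were 0.16, -0.23 and -0.42 without pool 2. The list median was -0.57, and -0.30 without pool 2.

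**Figure D4:**
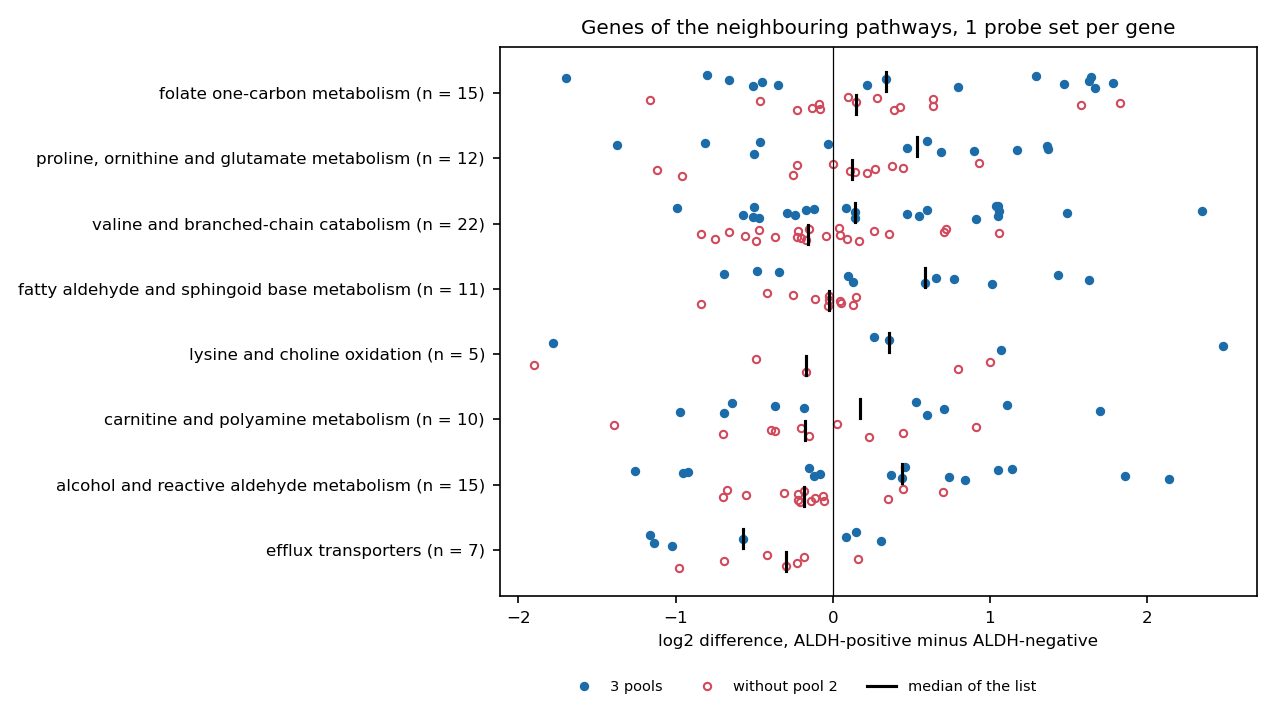
Log2 differences (ALDH-positive minus ALDH-negative) of the tested genes of 8 pathway lists, 1 probe set per gene, over 3 pools (filled) and without pool 2 (open), with the list medians as black bars. The median of fatty aldehyde metabolism is 0.59 over 3 pools and -0.023 without pool 2, that of alcohol and reactive aldehyde metabolism is 0.44 and -0.18, and the median of the efflux transporters is -0.57 over 3 pools and -0.30 without pool 2.

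For the 3 probe sets of smallest unadjusted p, the genes of most similar level across the 6 arrays were listed by Pearson correlation, as a description. Levels of Aldh1l1 ran closest to those of Fam149b (r = 0.998), Nrf1 and Ppp1r3f (both 0.997), and on the 5 arrays without the ALDH-negative one of pool 2 the values were 0.991, 0.988 and 0.989. For 1415836_at of Aldh18a1 they were Ddit4l (0.998), Arf6 (0.997) and Haus6 (0.996), and 0.999, 0.998 and 0.996 on the 5 arrays. For 1434987_at of Aldh2 they were Epb41l2 (1.0), Gsk3b (0.999) and Rbm39 (0.999), with 0.938, 0.931 and 0.903 on the 5 arrays. The Aldh2 values rest on the low reading of the ALDH-negative array of pool 2.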

How the data were processed

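Expression was measured on Affymetrix Mouse Genome 430 2.0 arrays, 1 for each of 6 samples, after amplification of cDNA with the Ovation Pico WTA System, per the labels' protocols. The authors deposited 1 log2 value per probe set, taken as log2 from its range of 0.035 to 13.055. No source used here states how the values were summarised or normalized, and the series design names GeneSifter and a paired SAM analysis. Array medians differed by 0.46, so quantile normalization was applied to the table, less its 64 control probe sets. Symbols come from the platform annotation in GEO, updated by Entrez identifier with RefSeq's GRCm38.p6 table (34945 with 1 symbol, 932 with several, 9160 with none; 34741 matched). The lower 40% by mean were left out, below a log2 level of 2.73.

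The comparison used limma 3.58.1 (R 4.3.3) blocked by pool, with p-values adjusted by Benjamini-Hochberg. Pairing comes from the series design. As a check of it, the 2 arrays of a pool deviated from their groups with correlations of 0.38, -0.19 and 0.35, and the highest between pools was 0.42. Intervals are at 95%. The fit was tested on simulated data with the same spread for every probe set and no outlying array. That test therefore does not cover an array such as the ALDH-negative one of pool 2. Members and lists were chosen with earlier results of these data known. Named are all 10 members, the up to 3 genes of smallest unadjusted p in each pathway list, Aldh1a1, Aldh1a2 and Aldh1a3, and for the 3 member probe sets of smallest p the 3 genes of highest correlation. Lists use the probe set of highest mean per gene. Alternatives were normalization, block, array weights, variance prior, filter and left-out arrays. With arrays left out, the remaining ones were quantile normalized anew and the same probe sets were tested.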

Additional observations from a re-analysis of the deposited data

How the results depend on the processing

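Counts past the adjusted limma threshold were 0 for the members and for the whole table under the values as deposited, median centring, no replicate block, a random replicate block, an intensity trend, no filter and a stricter filter (lower 60% left out), where 412 to 910 probe sets of the whole table, and 0 or 1 of the members, had an unadjusted p under 0.05. Unblocked, 1 of the 20 member probe sets had an unadjusted p under 0.05, as in the blocked fit, and no adjusted call changed with the block. At the unadjusted level the whole table had 542 without the block and 661 with it. Without it Bhmt and Atic no longer reached that level, with unadjusted limma p-values of 0.085 and 0.056. Array weights gave 2953 calls in all and 3 among the members: 1437398_a_at of Aldh9a1 (-2.11), 1415836_at of Aldh18a1 (1.99) and Aldh1l2 (-1.37), with adjusted p = 0.00732, 0.00808 and 0.0354. The weights were 4.87 for both arrays of pool 3, 1.30 for pool 1 and 0.158 for pool 2, so these calls lean on pool 3. Among the other named genes they also called Aldh1a2 (4.86), Mthfd1l (2.44), Bhmt (-1.82), Atic (1.98), Dld (1.83) and Mtfmt (-1.46), with limma adjusted p = 1.3e-06, 0.0028, 0.00483, 0.00502, 0.0165 and 0.0206. Leaving out 1 pool, or the ALDH-negative array of pool 2, gave 0 to 7 calls in the whole table (7 without pool 1) and 0 to 0 among the members. The members' median difference was 0.55 after median centring, where the median of all tested probe sets was 0.22, and it was 0.02 in the unblocked fit and -0.15 to 0.36 without single pools (-0.28 without the ALDH-negative array of pool 2).

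Directions turned with array weights for Aldh1b1 (1.25), Aldh6a1 (-0.036), 1448137_at of Aldh7a1 (0.51), 1436689_a_at of Aldh9a1 (-0.84), 4 probe sets of Aldh18a1 (1435855_x_at -0.21, 1437325_x_at -0.30, 1437333_x_at 0.24, 1437620_x_at -0.25), Hacd2 (-0.009) and Slc7a1 (-0.29). The values as deposited and median centring turned Aldh1b1 (0.048 and 0.21), Aldh3a2 (0.11 and 0.27) and 1448137_at of Aldh7a1 (0.35 and 0.52). With arrays left out, 13 of the 20 members turned at least once and 7 did not, and the share over all tested probe sets was not counted. Ranges were -0.94 to 0.95 for Aldh1b1, -0.21 to 3.26, -0.22 to 3.18 and -0.15 to 2.14 for 1434987_at, 1434988_x_at and 1448143_at of Aldh2, -0.81 to 0.25 for Aldh3a2, -0.58 to 1.0 for Aldh6a1, -0.54 to 1.13 for 1448137_at of Aldh7a1, and -0.53 to 1.17 and -1.53 to 0.39 for 1436689_a_at and 1437398_a_at of Aldh9a1. For Aldh18a1 they were -0.24 to 0.32 (1435855_x_at), -0.47 to 2.14 (1437325_x_at), -1.0 to 0.29 (1437333_x_at) and -0.42 to 1.47 (1437620_x_at). Other genes that turned were Aldh1a3 (-1.20 to 0.32), Aldh8a1 (-1.30 to 0.042), Slc25a12 (-0.078 to 1.99), Echs1 (-0.044 to 2.24), Hacd2 (-0.022 to 2.57), Sgpl1 (-0.022 to 2.15), Tecr (-0.031 to 1.67), Slc7a1 (-0.34 to 1.80) and Adh1 (-0.32 to 3.28). Within these ranges, leaving out the ALDH-negative array of pool 2 alone gave 0.56 for Aldh1b1, -0.17 for 1434987_at of Aldh2 and 0.12 for Aldh1a3. Leaving out pool 2 gave -0.14 for 1448143_at of Aldh2, -0.31 for Aldh6a1, 0.65 for 1448137_at of Aldh7a1, -0.52 for 1436689_a_at of Aldh9a1, -0.14 for both 1437325_x_at and 1437620_x_at of Aldh18a1, -0.17 for Slc7a1 and -0.054 for Adh1, and leaving out pool 1 gave -0.073 for 1435855_x_at of Aldh18a1. The cause was not tested. Dim probe sets hold mostly background, and detection calls were not used here.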
